A study of Mus musculus with 6 samples.

Results

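The kinesin genes of mouse pachytene spermatocytes, germ cells whose paired homologous chromosomes recombine in meiosis, were followed in polyadenylated RNA from 1 wild type (WT) and 1 Alkbh1-/- library. Members were all genes whose symbol is Kif followed by a number, with letters allowed after it. Of 40 such symbols, 39 had a row among the 21310 genes of the count table, and the fortieth, Kif12, was not analysed here. Of the 39, 37 encode motors. Kif1bp, which encodes a protein that binds kinesin motors, and Kif16bos, a noncoding RNA named for the strand opposite Kif16b, were taken by the symbol rule alone.

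The Alkbh1-/- mice carry a targeted deletion of exon 6 of Alkbh1, which encodes a dioxygenase related to AlkB, and heterozygotes had been bred back to C57/BL6; no strain or age is stated for the WT mice. Both libraries came from testis cells labelled as pachytene spermatocytes, with inputs of 1 µg (WT) and 1.6 µg (Alkbh1-/-) selected on oligo(dT) and read as 75 bp pairs. Depth was 8222671 counts for WT and 10229260 for Alkbh1-/-. Alkbh1 had 171 and 209 counts, and the table gives 1 count per gene and none per exon, which leaves the loss of exon 6 unchecked. With 1 library per genotype there is no test and no replicate error, and genotype and library preparation cannot be told apart. Intervals on ratios are exact 95% Clopper-Pearson intervals that cover counting error only.

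Kinesins are motors that use ATP to walk along microtubules or to take tubulin off their ends. Some build and move the spindle in mitosis and meiosis, some carry vesicles, organelles and RNA, and others serve cilia and flagella. Spermatocytes store many transcripts for the divisions to come and for the spermatids, which grow a flagellum and shape their nucleus along a sleeve of microtubules. The motors were therefore ordered by role: 13 of division, 15 of transport, 6 of the cilium or flagellum, and 3 others (Kif26a, Kif26b and Kif28). The roles overlap, since Kif3a, Kif3b and Kif17, listed under transport, also work in cilia.

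The gene starts of most division kinesins shared a sequence that the symbol rule did not use. RefSeq windows (GRCm38.p6, 250 bases before to 50 after the gene start) were matched for 32 of the 39 genes and searched on both strands. The CHR, the letters TTTGAA, is known from promoters of genes that cells switch on late in the cell cycle. It was found in 9 of 12 division kinesins, 1 of 11 transport kinesins and 1 of 5 cilium kinesins, against 20.2% of all genes with such windows and 17.9% of all windows. The 9 genes held 12 matches, of which 8 began within 100 bases before the gene start or after it. One stretch of 36 bases per gene is shown, because no other element searched stood in as many division motors. The stretch is the one whose match is nearest the gene start, on the strand of the gene, with the match in capitals, which reads TTCAAA where it lies on the opposite strand.
Kif11, chr19:37376348-37376383, plus strand: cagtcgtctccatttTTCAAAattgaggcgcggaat
Kif14, chr1:136467605-136467640, plus strand: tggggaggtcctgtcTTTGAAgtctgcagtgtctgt
Kif15, chr9:122951047-122951082, plus strand: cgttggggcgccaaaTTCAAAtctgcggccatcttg
Kif18b, chr11:102925101-102925136, minus strand: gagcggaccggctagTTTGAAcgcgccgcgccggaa
Kif20b, chr19:34922350-34922385, plus strand: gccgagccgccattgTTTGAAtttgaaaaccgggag
Kif22, chr7:127042417-127042452, minus strand: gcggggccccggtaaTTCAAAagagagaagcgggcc
Kif23, chr9:61946777-61946812, minus strand: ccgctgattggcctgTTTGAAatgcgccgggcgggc
Kif2c, chr4:117178855-117178890, minus strand: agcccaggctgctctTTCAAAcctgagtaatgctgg
Kif4, chrX:100626069-100626104, plus strand: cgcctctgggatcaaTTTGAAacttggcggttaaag
The 3 division kinesins without the letters in their windows were Kif2a, Kif2b and Kif18a, and Kif20a had no matched window. The match in Kif14 lay 228 bases and that in Kif2c 103 bases before the gene start, while those of Kif11 and Kif15 both began 19 bases before it. The stretch of Kif20b also holds its second match, the tttgaa left in small letters, which begins at base 14 of the gene.

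A second sequence marked the start of Kif17, the motor whose testis form binds ACT, a coactivator of the transcription factor CREM, and carries it between nucleus and cytoplasm. The full cyclic AMP response element (CRE), TGACGTCA, to which CREM binds, was present in 2.03% of all genes with windows and in 3 of 30 kinesin motors: Kif17, Kif5c and Kif18a. The window of Kif17 is shown whole, with the element in capitals, because this motor also had the highest ratio among kinesins over the count floor. Ratios of Alkbh1-/- to WT were 0.735 (interval 0.617 to 0.875) for Kif5c and 0.941 (0.793 to 1.12) for Kif18a, both below 1. Whether the element bears on these ratios was not tested.
Kif17, chr4:138262001-138262300, plus strand: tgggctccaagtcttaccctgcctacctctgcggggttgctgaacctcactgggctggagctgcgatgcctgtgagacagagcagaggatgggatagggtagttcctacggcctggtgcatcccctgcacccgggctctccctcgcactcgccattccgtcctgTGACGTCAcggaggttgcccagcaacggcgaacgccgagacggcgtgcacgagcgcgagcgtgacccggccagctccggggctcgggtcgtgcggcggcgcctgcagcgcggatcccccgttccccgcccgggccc
Kif5c, chr2:49619245-49619282, plus strand: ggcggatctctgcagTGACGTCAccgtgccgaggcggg
Kif18a, chr2:109280753-109280787, plus strand: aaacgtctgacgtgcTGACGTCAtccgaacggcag
The element began 86 bases before the start of Kif17 and 26 bases before that of Kif5c. In Kif18a it lay after the gene start, beginning at base 31 of the gene. CCAAT, the letters that the factor NF-Y binds, stood in the windows of 14 of the 30 motors, near the 41.1% of all genes. Letters bound by MYB factors (TAACNG or CAACNG) stood in 18 of 30, against 53.1% of all genes. Among division kinesins the CCAAT letters and the MYB letters each stood in 7 of 12 genes. A match describes the letters of a window and is no evidence that a factor binds there.

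**Figure D1:**
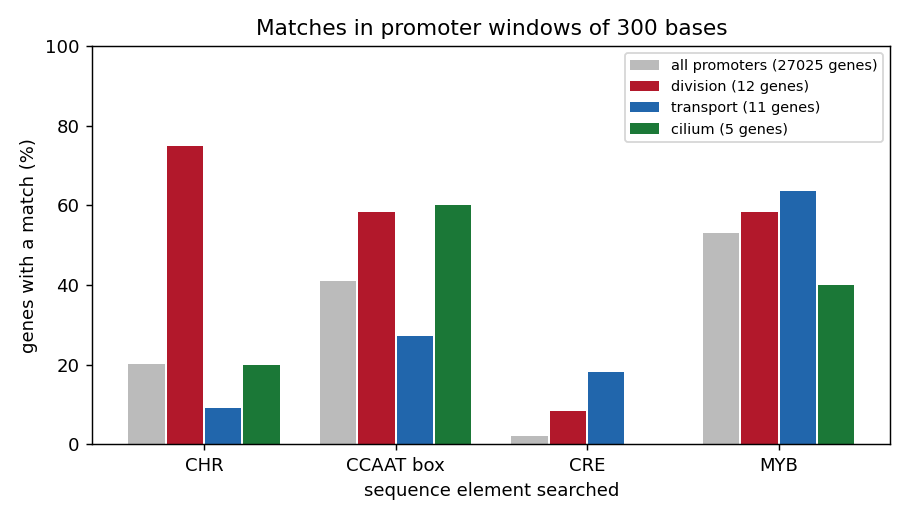
Share of genes (%, vertical axis) with at least 1 match to each of 4 sequence elements in windows of 300 bases, for all genes with windows and for the division, transport and cilium kinesins. The CHR bar of the division kinesins (9 of 12 genes) stands at 75%, that of all genes at 20.2%, and the CRE bars rest on 1 and 2 genes.

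Reads of the kinesin motors made up 0.336% of all counts in WT (95% Wilson interval 0.332 to 0.340) and 0.356% in Alkbh1-/- (0.352 to 0.359). Division motors held 35.3% of these reads in WT and 36.5% in Alkbh1-/-, transport motors 36.6% and 35.6%, and cilium motors 27.3% and 27.3%. The difference in division motors rested on 1 gene: without Kif2b their share of the remaining kinesin reads was 32.4% in WT and 32.3% in Alkbh1-/-. Reads were concentrated on few genes: the 5 with most reads held 52.1% of kinesin reads in WT and 51.4% in Alkbh1-/-. Exon lengths were not used here, so these are shares of reads, and no order of transcript levels between genes is given.

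Of the 39 genes, 35 reached 5 CPM (counts scaled to library size) in at least 1 library, the floor used for counting differences, and Kif7, Kif16bos, Kif26a and Kif28 did not. Differences are log2((Alkbh1-/- + 1)/(WT + 1)) on the CPM scale, and ratios are of CPM without the added 1. At 1.5-fold, 2 of the 35 were higher in Alkbh1-/- (Kif17 and Kif1bp), beside 8.06% of the 12189 genes over the floor, and 4 were lower (Kif21a, Kif1a, Kif19a and Kif4), beside 8.79%. None was past 2-fold, beside 1.8% of all genes higher and 2.71% lower. The median log2 difference of the 35 was -0.0030, beside -0.017 for all genes, and it was 0.028 with scaling by library totals. In all, 19 of the 35 lay within 1.2-fold, beside 56.7% of all genes. The exact interval of the ratio lay wholly above 1 for 9 of the 35, beside 23.7% of all genes over the floor, and wholly below 1 for 8, beside 26.8%. These shares were near those of all genes, so the counts set nothing apart about the family.

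**Figure D2:**
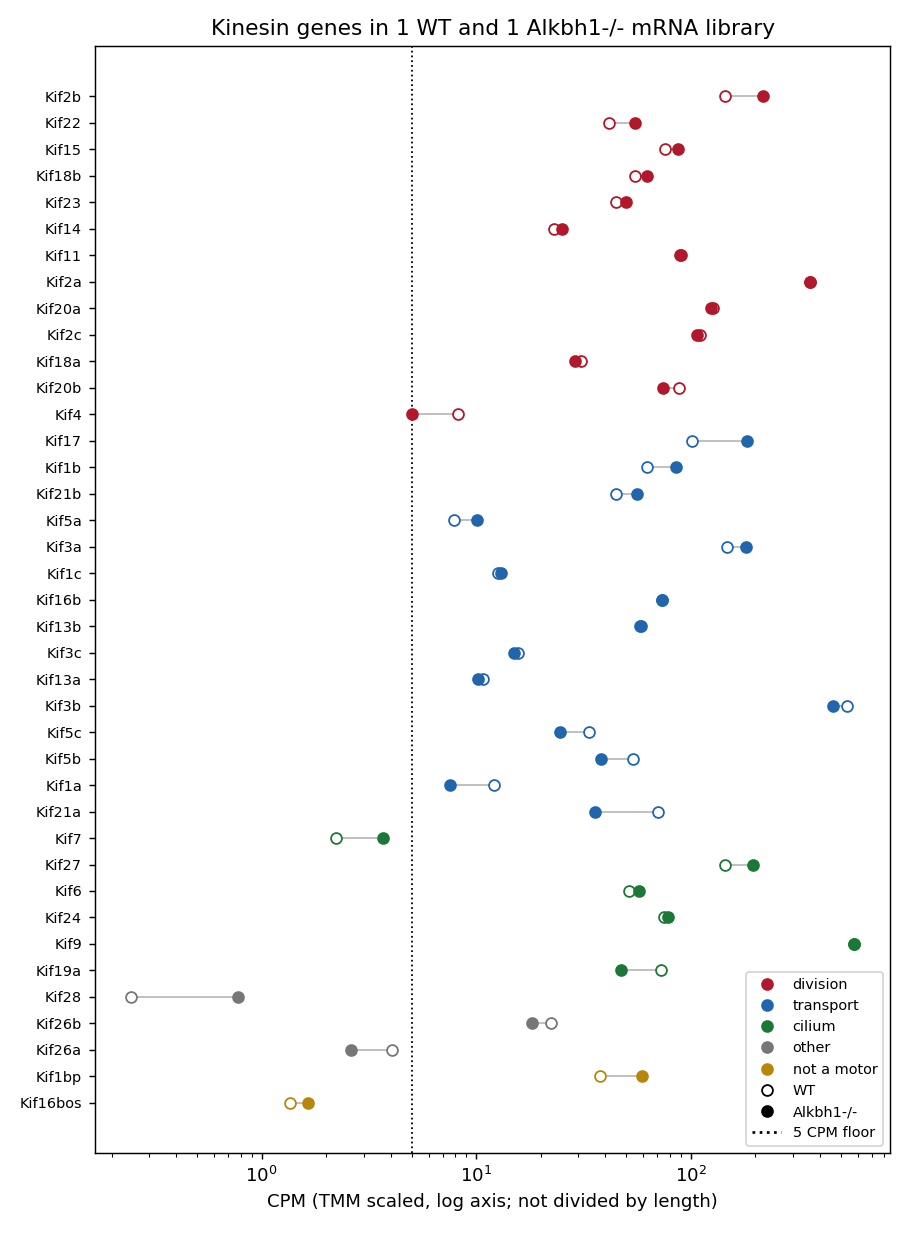
CPM (horizontal log axis, not divided by length) of each of the 39 genes in the WT library (open circles) and the Alkbh1-/- library (filled circles), coloured by role, with the 5 CPM floor dotted. Circles of most genes nearly touch, while Kif17, Kif2b, Kif27 and Kif1bp lie further right and Kif21a and Kif19a further left in Alkbh1-/-.

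**Figure D3:**
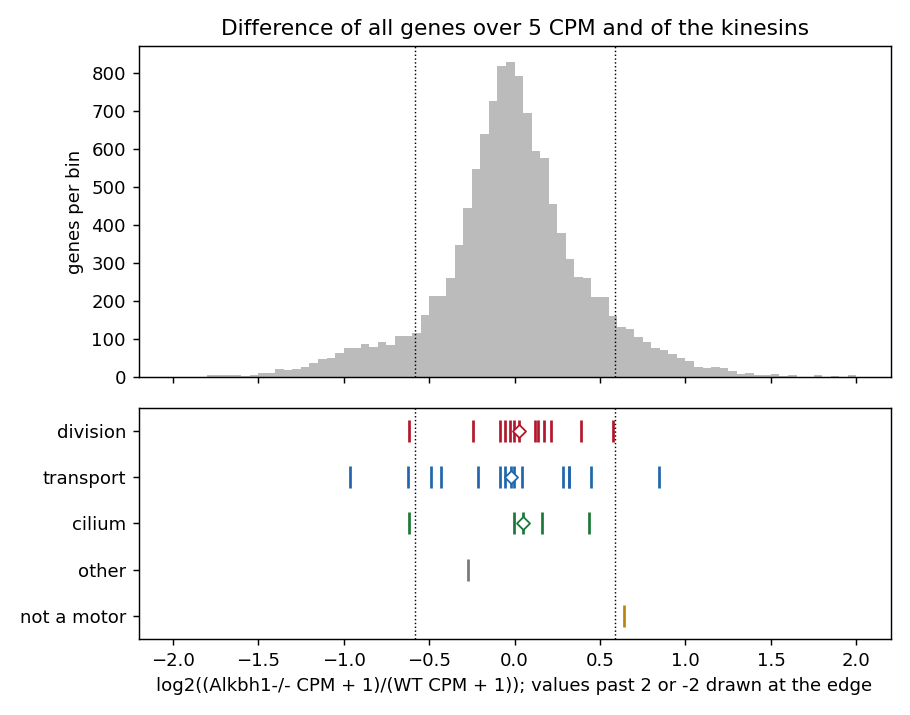
Top, number of genes per bin of log2 difference for all 12189 genes over 5 CPM. Bottom, each kinesin as a tick with the median of its role as a diamond (roles with 1 gene have none), and dotted lines at 1.5-fold. The medians of division, transport and cilium kinesins lie at 0.026, -0.022 and 0.048, close to the peak of all genes.

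Division kinesins, which are needed once the spermatocyte leaves pachytene, were all over the floor. Within 1.5-fold lay 12 of 13, beside 10136 of the 12189 genes over the floor. The median log2 difference of the 13 was 0.026, with 7 above and 6 below 0. Kif2a, Kif2b and Kif2c take tubulin off microtubule ends. Kif2a had 2920 counts in WT and 3703 in Alkbh1-/-, which is 359 and 358 CPM (ratio 0.998, interval 0.950 to 1.05). Kif2c, the centromere depolymerase MCAK, had 903 and 1103 counts, or 111 and 107 CPM (ratio 0.961, 0.879 to 1.05). Kif2b stood apart from them, with 1182 and 2242 counts, or 145 and 217 CPM. Its ratio of 1.49 (1.39 to 1.60) was the highest among the division motors and fell just short of 1.5-fold; it was past 1.5-fold when the libraries were scaled by their totals or by upper quartile.

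The motors that push spindle poles apart differed little. Kif11 (Eg5), which slides antiparallel microtubules, had 724 counts in WT and 937 in Alkbh1-/-, or 89.0 and 90.6 CPM (ratio 1.02, 0.923 to 1.12). Kif15, which backs up Kif11, had 615 and 906 counts, or 75.6 and 87.6 CPM (ratio 1.16, 1.05 to 1.29). The interval of Kif15 lay above 1 and that of Kif11 held 1. Kif18a, which dampens chromosome movements at the metaphase plate and without which mice lose germ cells, had 251 and 300 counts (ratio 0.941, 0.793 to 1.12). Its relative Kif18b had 449 and 644 counts (ratio 1.13, 0.999 to 1.28).

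The chromokinesins, which hold chromosome arms, lay on opposite sides of 1. Differences as large as those of Kif22 and Kif4 were reached by 29.6% and 15.6% of all genes over the floor. Kif22 (Kid) had 339 counts in WT and 568 in Alkbh1-/-, or 41.7 and 54.9 CPM (ratio 1.32, 1.15 to 1.51). Kif4 had few reads, 67 and 52 counts or 8.24 and 5.03 CPM. It is the only member on the X chromosome, which is silenced in pachytene, and whether this bears on its reads was not tested. It was 1.64-fold lower in Alkbh1-/- (1.12 to 2.40). This wide interval reflects the low counts, and Kif4 was no longer past 1.5-fold with a pseudocount of 5 CPM. Kif22 has a pseudogene copy, Kif22-ps, with 6 and 3 counts, and Kif4 has one, Kif4-ps, that was not analysed here, so reads may be shared with them.

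Motors of cytokinesis lay close to 1, except for Kif20b. Kif20a (MKLP2) had 1029 counts in WT and 1282 in Alkbh1-/-, or 126 and 124 CPM (ratio 0.980, 0.902 to 1.07). Its span overlaps Brd8 (1240 and 1725 counts) and Cdc23 (227 and 296), and since the use of strand in counting is not stated, the value is uncertain. Kif23 (MKLP1), a subunit of centralspindlin, which germ cells also keep at their intercellular bridges, had 367 and 514 counts (ratio 1.10, 0.962 to 1.26). Kif14, which recruits citron kinase to the midbody, had 188 and 260 counts (ratio 1.09, 0.899 to 1.32). The intervals of these 3 all held 1. Kif20b had 715 and 767 counts, 1.18-fold lower in Alkbh1-/- (1.07 to 1.31). The 9 division kinesins with a CHR match had a median log2 difference of 0.12 (from -0.62 to 0.39). The 3 without one had 0.57 (Kif2b), -0.0030 (Kif2a) and -0.086 (Kif18a). The ranges overlapped, which decides nothing with 3 genes in a group, and whether the CHR bears on these differences was not tested.

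Partners of these motors on the spindle and midbody, taken as a list of 22, were all measured and none was past 1.5-fold in either direction. Their median log2 difference was -0.083, and 19 of 22 lay below 0, beside 6352 of the 12189 genes over the floor. Among all genes over the floor 8.06% were higher and 8.79% lower at 1.5-fold. Prc1, which bundles midzone microtubules and binds Kif4, had 1737 counts in WT and 2286 in Alkbh1-/- (log2 difference 0.050). Racgap1, the centralspindlin partner of Kif23, had -0.098, and the kinases Aurka and Plk1 had -0.19 and -0.11. The most extreme were Aurkc, the Aurora kinase of germ cells (-0.33), and Mki67, a proliferation marker (0.26). Cenpe, the centromere kinesin whose symbol lies outside the rule, had 980 and 1415 counts (ratio 1.14, 1.05 to 1.23). Kifc1, a minus-end motor of the spindle that also works on the spermatid nucleus, had 88 and 180 counts (ratio 1.61, 1.24 to 2.10). Kifc1 and its near-identical copy Kifc5b (111 and 165 counts) may share reads, so both counts are uncertain.

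**Figure D4:**
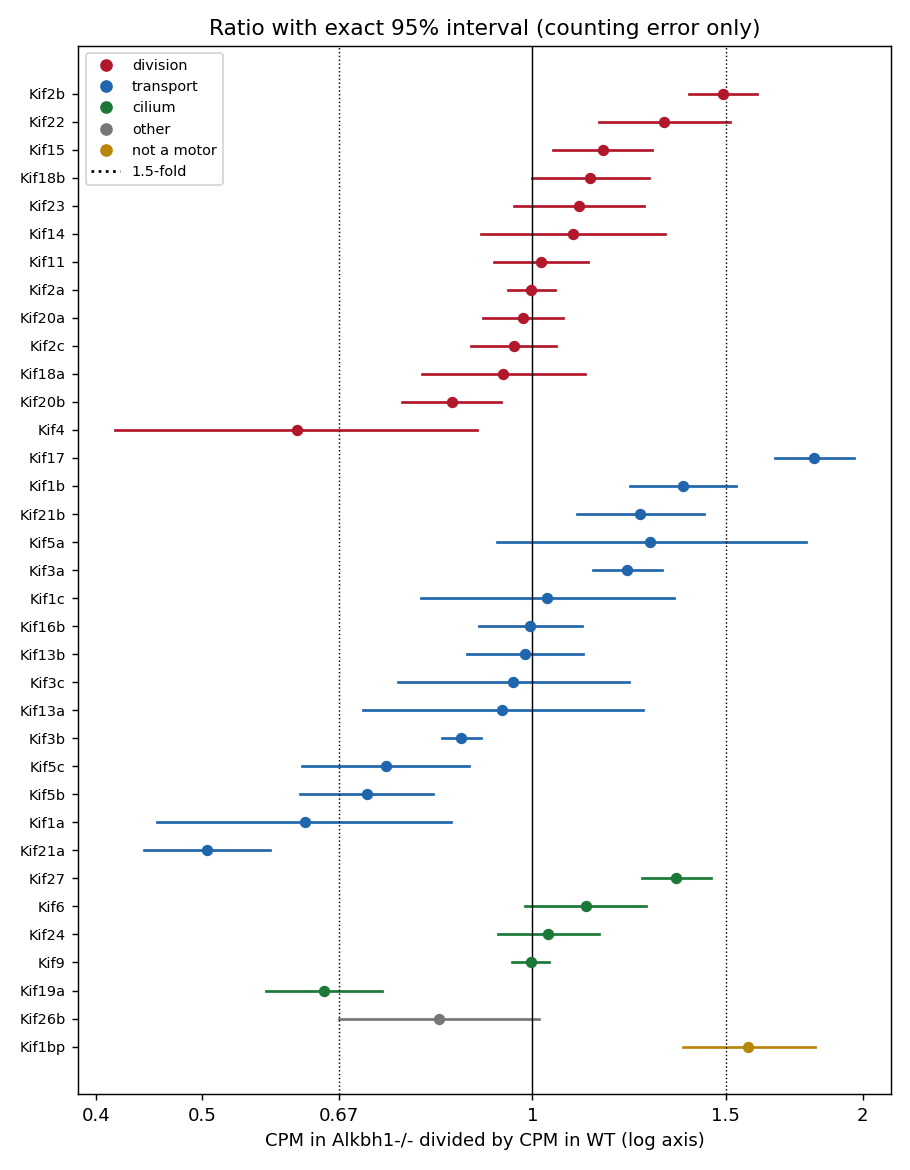
Ratio of CPM in Alkbh1-/- to CPM in WT (horizontal log axis) with its exact 95% interval for each of the 35 genes over the floor, coloured by role, with 1.5-fold dotted. The interval of Kif17 (1.66 to 1.96) lies wholly above 1.5-fold and that of Kif21a (0.442 to 0.577) wholly below its inverse; 18 of the 35 intervals hold 1, and 23.7% of all genes over the floor lie wholly above and 26.8% wholly below 1.

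Transport kinesins had log2 differences from -0.96 to 0.85, and division kinesins from -0.62 to 0.57. Of 15 transport kinesins 6 lay above and 9 below 0, with a median of -0.022 that changed sign with scaling by library totals (0.0080). At 1.5-fold 1 was higher (beside 8.06% of all genes over the floor) and 2 were lower (beside 8.79%). Of the 15 intervals, 4 lay above 1 (beside 23.7% of all genes over the floor), 5 below 1 (beside 26.8%), and 6 held 1. No test compares the spread of the roles here.

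The motors named kinesin-2 work as Kif3a and Kif3b paired with the adaptor Kifap3, and as Kif17 pairs. Kif17 had 824 counts in WT and 1891 in Alkbh1-/-, or 101 and 183 CPM. It was 1.81-fold higher in Alkbh1-/- (interval 1.66 to 1.96; log2 difference 0.85), a difference that 8.04% of all genes over the floor reached or passed in either direction. The count covers the whole gene and does not separate the testis form from others. Kif3a, which is needed for the sperm tail, had 1206 and 1871 counts, or 148 and 181 CPM (ratio 1.22, 1.13 to 1.31). Kif3b, its partner, had 4366 and 4778 counts, or 537 and 462 CPM (ratio 0.861, 0.826 to 0.897). The intervals of the pair lay on opposite sides of 1, and there were 0.276 reads of Kif3a per read of Kif3b in WT and 0.392 in Alkbh1-/-. Of all genes over the floor, 40.2% differed as much as Kif3a or more, and 51.0% as much as Kif3b. Kifap3 lay on the side of Kif3a, with 1098 and 1648 counts (ratio 1.18, 1.09 to 1.28). Kif3c, a partner of Kif3a best known from neurons, had 127 and 155 counts (ratio 0.960, 0.755 to 1.22), and its span overlaps the noncoding 1110002L01Rik (281 and 440), so its value is uncertain too.

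Genes on the known route of Kif17 in spermatids were taken as a list of 7. Its coactivator cargo ACT (Fhl5) was not analysed here. Of the 6 measured, 2 were at least 1.5-fold higher (beside 8.06% of all genes over the floor) and none lower (beside 8.79%). The median log2 difference of the 6 was 0.075. Crem had 1463 counts in WT and 2141 in Alkbh1-/- (ratio 1.15, 1.08 to 1.23). Of the known CREM targets, Odf1, a protein of the sperm tail, had 922 and 2055 counts (ratio 1.75, 1.62 to 1.90) and the protamine Prm2 had 2051 and 4271 (ratio 1.64, 1.55 to 1.73). The transition protein Tnp1, another target, had 1857 and 1852 counts (ratio 0.785, 0.735 to 0.837), and Prm1 had 1381 and 1692 (ratio 0.964, 0.897 to 1.04). Tnp2 had 2488 and 2868 counts (ratio 0.907, 0.859 to 0.958). The list therefore held genes on both sides of 1. Tnp1, Tnp2, Prm1 and Prm2 of the same list are also among 11 spermatid markers. Of the 11, 5 (Prm2 among them) were higher at 1.5-fold (beside 8.06% of all genes over the floor) and none lower (beside 8.79%). The 11 summed to 1509 CPM in WT and 1820 in Alkbh1-/-. In bulk samples, more or fewer cells of a type and more or less RNA per cell cannot be told apart, and the part of spermatid RNA in the value of Kif17 was not tested.

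Conventional kinesin, whose heavy chains carry vesicles and mitochondria, had none of its 3 genes past 1.5-fold. At that fold 8.06% of all genes over the floor were higher and 8.79% lower, so this sets nothing apart. Kif5b, the heavy chain made in most cells, had 438 counts in WT and 393 in Alkbh1-/-, or 53.8 and 38.0 CPM (1.42-fold lower, 1.23 to 1.63). Kif5c, a chain best known from neurons, had 273 and 255 counts, or 33.6 and 24.7 CPM (1.36-fold lower, 1.14 to 1.62). Kif5a, the other neuronal chain, had 64 and 104 counts (ratio 1.28, 0.928 to 1.77), an interval that holds 1, and its span overlaps Dctn2, which had 4360 and 5276 counts. Of the light chains that couple these motors to cargo, Klc2 had 1871 and 1990 counts (ratio 0.837, 0.785 to 0.892), while Klc1 had 102 and 197 (ratio 1.52, 1.19 to 1.95). Klc3, the light chain known from the sperm tail, was under the floor, with 23 and 19 counts. Trak1, a mitochondrial adaptor, had 1183 and 1057 counts (1.42-fold lower; log2 difference -0.50).

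Close relatives in the monomeric and vesicle-carrying family differed in direction. Kif1a, the carrier of synaptic vesicle precursors, had 99 counts in WT and 78 in Alkbh1-/-, or 12.2 and 7.54 CPM (1.61-fold lower, 1.19 to 2.20). Kif1b, a carrier of mitochondria and vesicles, had 509 and 887 counts, or 62.6 and 85.8 CPM (ratio 1.37, 1.23 to 1.53). These 2 intervals lay on opposite sides of 1. Of all genes over the floor, 15.2% differed as much as Kif1a or more, and 25.0% as much as Kif1b. Kif1c had 103 and 135 counts (ratio 1.03), Kif13a 88 and 105 (0.939), Kif13b 478 and 598 (0.984), and Kif16b, a motor of early endosomes, 599 and 758 (0.996). All 4 of their intervals held 1. Kif16bos, which does not overlap Kif16b in the RefSeq annotation, had 11 and 17 counts. Kif1bp, whose product binds motors of this family and blocks them from microtubules, had 308 and 616 counts, or 37.9 and 59.6 CPM (ratio 1.57, 1.37 to 1.81).

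The sister motors Kif21a and Kif21b, which restrain microtubule growth, also lay on opposite sides of 1. Kif21a had 576 counts in WT and 370 in Alkbh1-/-, or 70.8 and 35.8 CPM. It was 1.98-fold lower (interval 1.73 to 2.26), the largest difference among the kinesins over the floor, and 5.19% of all genes over the floor differed as much or more in either direction. Kif21b had 364 and 580 counts, or 44.7 and 56.1 CPM (ratio 1.25, 1.10 to 1.43). A difference as large as that of Kif21b or larger was seen in 36.3% of all genes over the floor. Markers of Sertoli cells, the somatic cells that surround the germ cells, were also lower in the library in which Kif21a, Kif1a, Kif19a and Kif4 were lower at 1.5-fold and Kif5b, Kif5c, Kif20b and Kif3b had intervals below 1. Of 15 measured Sertoli markers, 14 were lower at 1.5-fold in Alkbh1-/- (beside 8.79% of all genes over the floor) and none higher (beside 8.06%). The summed level of the 15 was 3270 CPM in WT and 1609 in Alkbh1-/- (ratio 0.492), with none at 0 counts. The defining marker Sox9 had 383 and 139 counts. The part of Sertoli RNA in these kinesin values was not tested.

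Of the kinesins of the cilium and flagellum over the floor, 3 of 5 lay near 1. Kif9, a motor of the sperm tail needed for motility, had the most reads of all kinesins, 4713 counts in WT and 5967 in Alkbh1-/-, or 579 and 577 CPM (ratio 0.996, 0.959 to 1.04). Kif6, known from the motile cilia of the brain, had 418 and 594 counts (ratio 1.12, 0.985 to 1.27). Kif24, which trims centriolar microtubules and keeps cilia from forming, had 614 and 807 counts (ratio 1.03, 0.930 to 1.15). The intervals of these 3 held 1.

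The remaining cilium motors differed more. Kif27, a relative of Kif7 that is tied to motile cilia, had 1175 counts in WT and 2020 in Alkbh1-/-, or 144 and 195 CPM (ratio 1.35, 1.26 to 1.45). Kif19a, which sets the length of cilia by trimming microtubules at the tip, had 593 and 487 counts, or 72.9 and 47.1 CPM (1.55-fold lower, 1.37 to 1.75). Differences as large as those of Kif27 and Kif19a were reached by 26.2% and 15.4% of all genes over the floor. Kif7, a regulator of Hedgehog signalling at the tip of the cilium, was under the floor with 18 and 38 counts (ratio 1.66, 0.925 to 3.09), and its span overlaps Ticrr (81 and 148 counts). Over the 5 cilium motors above the floor the median log2 difference was 0.048. Of the 5, 0 were at least 1.5-fold higher (beside 8.06% of all genes over the floor) and 1 lower (beside 8.79%). Of 18 genes of intraflagellar transport, the trains that kinesin-2 pulls along the axoneme, 1 was at least 1.5-fold higher and none lower. Among all genes over the floor 8.06% were higher and 8.79% lower. The higher gene was Traf3ip1 (742 and 1473 counts, ratio 1.56), and the median of the 18 was 0.039. Ift88, a core part of the trains, had 790 and 1242 counts (ratio 1.24), and Ift20 had 656 and 713 (ratio 0.855).

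The opposite motor, cytoplasmic dynein, and its activator dynactin, had a median log2 difference of -0.099. None of 19 measured genes was past 1.5-fold, beside 8.06% of all genes over the floor higher and 8.79% lower. Of the 19, 16 lay below 0, beside 6352 of the 12189 genes over the floor. Dync1h1, the dynein heavy chain, had 14289 counts in WT and 17181 in Alkbh1-/- (ratio 0.946, 0.925 to 0.967). The lowest was Dync1i1, an intermediate chain, at -0.50, and the highest Dync2li1, a chain of the dynein that returns intraflagellar trains, at 0.26.

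The 3 motors outside these roles had few reads. Kif26b, a member of a family that does not hydrolyse ATP, had 181 counts in WT and 189 in Alkbh1-/- (ratio 0.822, 0.667 to 1.01), and Kif26a had 33 and 27 (ratio 0.644, 0.372 to 1.10). Kif28 had 2 and 8 counts (ratio 3.15, 0.628 to 30.4) and lies across Ahctf1, which had 3944 and 4863, so its reads are uncertain. All 3 intervals held 1. Among the other members, Kif2a, Kif18a, Kif19a and Kif3a overlap genes with fewer reads than their own (Dimt1, Mettl15, Btbd17 and A430108G06Rik). Some members overlap genes for which no counts were matched, among them Kif21a with the protein-coding Gm52215 and the noncoding Gm52216.

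Markers of the labelled cell type were present in both libraries: 8 pachytene markers had a median log2 difference of -0.041, with none past 1.5-fold. They summed to 11962 CPM in WT and 11245 in Alkbh1-/- (ratio 0.940, 0.932 to 0.948). Single ratios ran from 0.846 (Ccna1) to 1.06 (Piwil1). Ldhc had 40013 and 43770 counts, or 4918 and 4234 CPM (ratio 0.861, 0.849 to 0.873). Of 6 spermatogonial markers over the floor, 2 were higher at 1.5-fold (Kit, 99 and 265 counts, and Stra8, 45 and 98) and none lower. Among all genes over the floor 8.06% were higher and 8.79% lower. Uchl1 had 403 and 349 counts, and the 7 measured spermatogonial markers summed to 114 CPM in WT and 110 in Alkbh1-/-. Leydig markers summed to 69.8 and 140 CPM (4 of 5 over the floor at least 1.5-fold higher, none lower), and peritubular myoid markers to 14.3 and 25.3. Markers of blood and endothelium summed to 10.3 and 9.87 CPM, with the haemoglobin gene Hba-a1 at 0 counts in WT and 1 in Alkbh1-/-. Of this list only Cdh5 was over the floor, 1.86-fold lower in Alkbh1-/- (60 and 41 counts, ratio 0.538, 0.352 to 0.813). Pecam1 (18 and 40 counts), Cd68 (4 and 13) and Ptprc (2 and 7) had more counts in Alkbh1-/-, all under the floor. The part of these cells in the kinesin values was not tested.

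**Figure D5:**
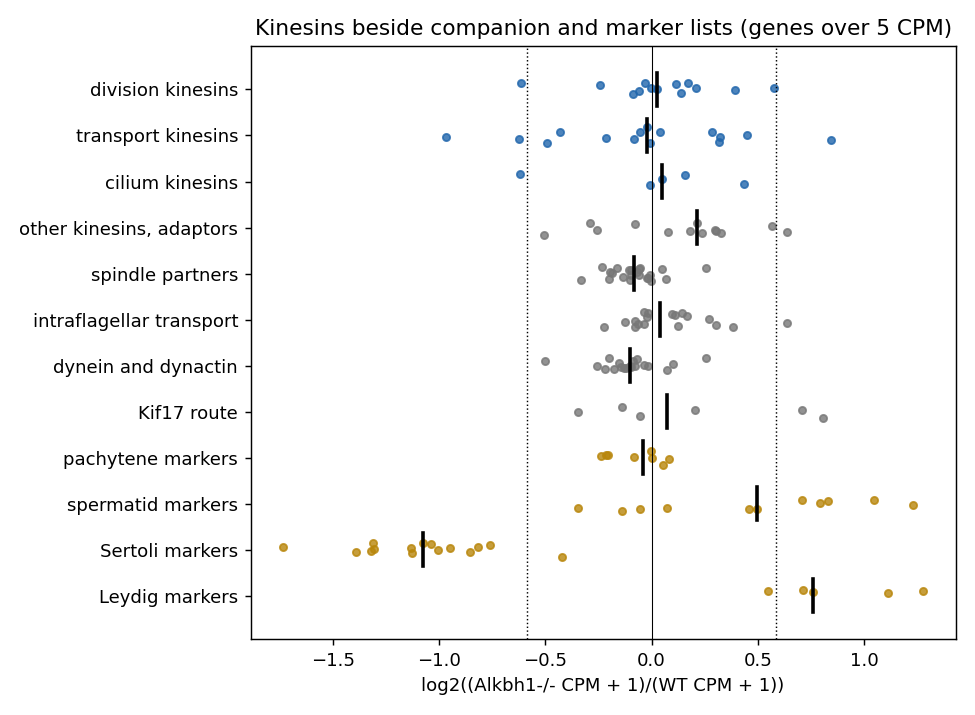
log2 difference (horizontal axis) of each gene over 5 CPM, 1 point per gene with the median of each list as a bar, for the kinesin roles (blue), companion lists (grey) and cell type markers (gold), with 1.5-fold dotted. Kinesin medians lie between -0.022 and 0.048, Sertoli markers at -1.08 and spermatid markers at 0.49.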

How the data were processed

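The authors deposited raw read counts (whole numbers) by Ensembl identifier for 1 WT and 1 Alkbh1-/- mRNA library; how and with what strand setting reads were counted is not stated. Per the submitters' processing notes, which give no roles, CASAVA 1.3, Novoalign, TopHat, bedtools and mm9 were used. Symbols matched 19848 of 21310 identifiers (93.1%). Counts were scaled by TMM (edgeR 4.0.16, R 4.3.3) to CPM, and log2 differences used a pseudocount of 1 CPM, which understates low genes. Ratio intervals came from scipy 1.17.1. The calculation was run on simulated counts with counting error only, which cannot speak to variation between libraries. Differences of 1.5-fold and 2-fold were counted among genes reaching 5 CPM in either library. Alternatives were other scalings (DESeq2 1.42.0 size factors among them), pseudocounts and floors. Named genes were all members, plus, from each companion list, the highest, the lowest and some chosen after their values were seen for their link to a motor. Members, lists, roles and sequence elements were chosen with earlier results of these data known. Levels per coding length were planned but no lengths were used here. Promoter windows and overlapping gene names are from RefSeq on GRCm38.p6, a build other than the counts'. The small RNA libraries were not used.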

Additional observations from a re-analysis of the deposited data

How the results depend on the processing

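All 195 log2 differences of single genes under 3 other scalings and 2 other pseudocounts stayed within their counting interval. Kif17, Kif1bp and Kif21a were past 1.5-fold in all 6 settings (main included), Kif1a, Kif4 and Kif19a in 5, failing at a pseudocount of 5 CPM, and Kif2b in 2. At that pseudocount the number lower at 1.5-fold went from 4 to 1, and with a floor of 20 CPM to 2, because fewer genes were counted. The number higher was 2, or 1 with motors alone (an alternative chosen after seeing the data), and 3 with library totals or upper quartile. The kinesin median moved from -0.0030 to 0.028 with library totals and to 0.026 with a floor of 20 CPM or none. The division median moved from 0.026 to 0.072 at 20 CPM, and the cilium median from 0.048 to 0.103 at a floor of 1 CPM or none, where Kif7 entered. The order of levels per coding length was not run. No paired analysis was possible because each genotype had 1 mRNA library. Counts limit Kif4, Kif7, Kif26a, Kif28 and Kif16bos most.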
